A study of Mus musculus with 4 samples.

Results

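Glycolysis and the response to low oxygen were examined through 31 genes, of 40213 gene symbols in bulk RNA-seq read counts of CD24+ emergency progenitors (EPs) from mouse spleen. The list, drawn up with earlier results of these data known and matched by gene symbol, holds transporters of glucose and lactate, the glycolytic enzymes and their regulators, and HIF1 with its hydroxylases and targets. EPs are CD11c+CD117+ cells that expand when the cytokine Flt3L is raised and that give rise to type 1 conventional dendritic cells (cDC1s). The study asked how these cells differ when TopBP1, a scaffold protein of DNA replication and of the DNA damage checkpoint, is deleted. The 2 WT libraries came from TopBP1 fl/fl littermates without Cre. The 2 libraries labelled TopBP1cKO came from TopBP1 fl/fl, CD11c-cre mice, in which Cre is made under the CD11c promoter, so that a cell can lose the floxed gene only once it has turned that promoter on. Mice of both groups were 7 to 10 weeks old, received Flt3L-Ig at 10 μg into the peritoneum on days 0 and 3, and gave their spleens for sorting on day 9. Nothing in the labels says whether a library held cells of 1 mouse or of several.

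Glycolysis splits glucose into 2 molecules of pyruvate in the cytosol. Its upper steps spend ATP to phosphorylate and cleave the sugar, and its lower steps, from GAPDH to pyruvate kinase, return ATP and NADH. Lactate dehydrogenase then regenerates NAD+ by turning pyruvate into lactate, which leaves through monocarboxylate transporters, unless pyruvate dehydrogenase sends the carbon to the mitochondria. The transcription factor HIF1 joins both sides of the list: prolyl hydroxylases mark its alpha subunit for destruction when oxygen is present, and stabilised HIF1 raises glucose transporters, most glycolytic enzymes, PDK1, VEGF and BNIP3. Activated dendritic cells are known for a fast turn towards glycolysis, and dividing cells of many kinds run it at a high rate.

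Across the 4 libraries the totals ran from 14561583 to 15193831 counts. The genes of the sorted surface proteins (Itgax for CD11c, Kit for CD117, and Cd24a) and Flt3, the receptor gene of Flt3L, were abundant in each. Together these 4 had 2401 to 2790 CPM (read counts scaled to a common library size). Kit, Cd24a and Flt3 were lower in both TopBP1cKO libraries than in both WT libraries, as were 20.8% of all genes, and Itgax was higher. Of the 4, 0 passed an FDR of 0.05. Topbp1, the targeted gene, had 1102 and 1143 counts in WT, 773 in TopBP1cKO replicate 1 and 1279 in TopBP1cKO replicate 2. The last of these lay above both WT libraries. The counts were summed over the whole gene, so they do not show whether its floxed part was lost in either TopBP1cKO library. The log2 fold change of Topbp1 was −0.20 (SE 0.214, FDR = 0.774). It was −0.61 when TopBP1cKO replicate 2 was left out and 0.11 when TopBP1cKO replicate 1 was left out. The libraries labelled TopBP1cKO also differed from each other in other ways. All 20 cell cycle markers had an unadjusted P under 0.05 and higher values, where 6.95% of all genes did. Of these 20, 0 passed an FDR of 0.05. Their summed level was 758 and 737 CPM in WT, 993 in TopBP1cKO replicate 1 and 2630 in replicate 2. Of 14 neutrophil markers, 12 were higher by the same criterion. An FDR of 0.05 was passed by 7 of the 14, where 13 genes in all passed it. The 14 summed to 1546 and 1285 CPM in WT against 3361 and 2615 in TopBP1cKO. The counts of genes that differed are therefore given with both TopBP1cKO libraries and with each of them alone.

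**Figure D1:**
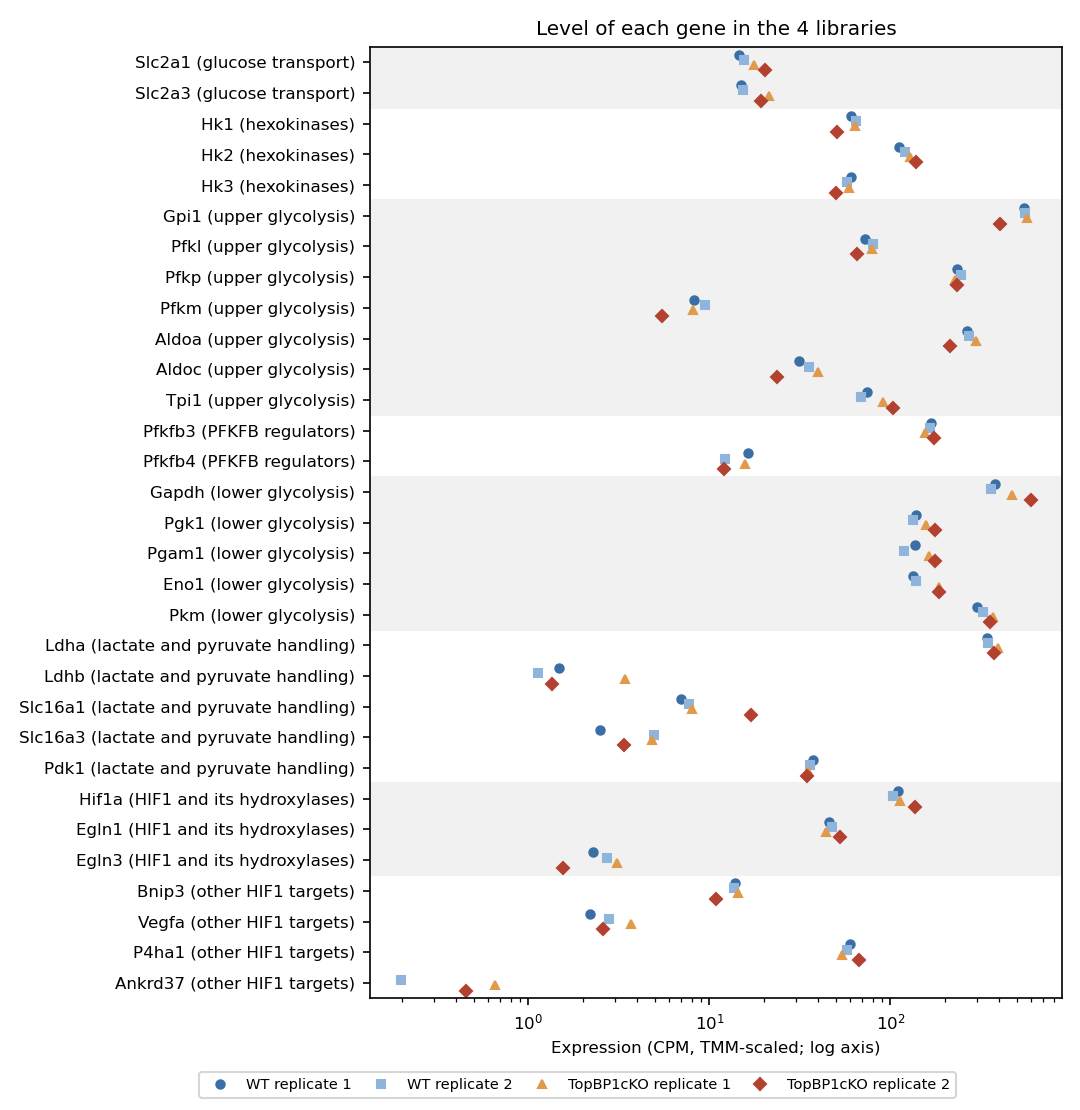
Expression of the 31 genes in each of the 4 libraries, in CPM scaled by the trimmed mean of M-values (TMM) on a log axis, grouped by role (bands). Gapdh, Gpi1, Ldha and Pkm lay above 300 CPM in every library, Ankrd37 lay below 1 CPM in every library and was 0 in WT replicate 1 (not drawn), and the points of WT replicate 1 and WT replicate 2 (blue) mostly sit close together.

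The chain was strongly transcribed in all 4 libraries. Per kilobase of transcript, the highest mean levels over the 4 libraries were those of Gapdh (319 CPM per kb), Ldha (229), Gpi1 (181), Aldoa (173) and Pkm (138). Pgam1, Pgk1 and Eno1 followed at 84.0, 82.9 and 79.2 CPM per kb, and Pfkp and Tpi1 stood at 56.6 and 52.4. The glucose transporters were far lower on this scale, with 5.22 for Slc2a1 and 4.47 for Slc2a3, and the lactate exporter Slc16a3, Egln3 and Vegfa were under 1 CPM per kb. In all, the 31 genes took 3396 and 3419 CPM in WT, 3795 CPM in TopBP1cKO replicate 1 and 3701 CPM in TopBP1cKO replicate 2.

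Between the labelled groups, none of the 30 genes tested passed an FDR of 0.05 by the quasi-likelihood test of edgeR, where 0.105% of the 12393 genes tested in all did. The 31st, Ankrd37, had too few counts to pass the filter before the test. By DESeq2, the edgeR likelihood ratio test and limma-voom the count was also 0. At an unadjusted P under 0.05, 6 of the 30 (20%) were higher in the libraries labelled TopBP1cKO, against 6.95% of all genes, and 0 were lower, against 3.77%, so that the share in either direction was 20% against 10.7%. These 6 were the glucose transporter Slc2a3 and the enzymes Tpi1, Gapdh, Pgk1, Pgam1 and Eno1. Membership at this threshold depended on the fit. Of the other fits of summed gene counts in all 4 libraries, DESeq2 and the fit with the replicate number as a block lost both Slc2a3 and Pgk1, the edgeR likelihood ratio test lost Slc2a3, and the fit without a filter on low counts lost Pgk1, while each of these 4 fits gained Slc16a1. In 12 genes (40%) both TopBP1cKO libraries lay above both WT libraries, against 22.8% of all genes, and in 2 (6.67%) both lay below, against 20.8%. The median log2 fold change over the 30 genes was 0.09, beside 0.01 over all genes tested, with 17 genes above 0 and 13 below. In sorted bulk samples, a different mix of cells and a different amount of RNA per cell cannot be told apart. The cell cycle and neutrophil markers above moved with the same libraries, and their part in these differences was not tested.

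**Figure D2:**
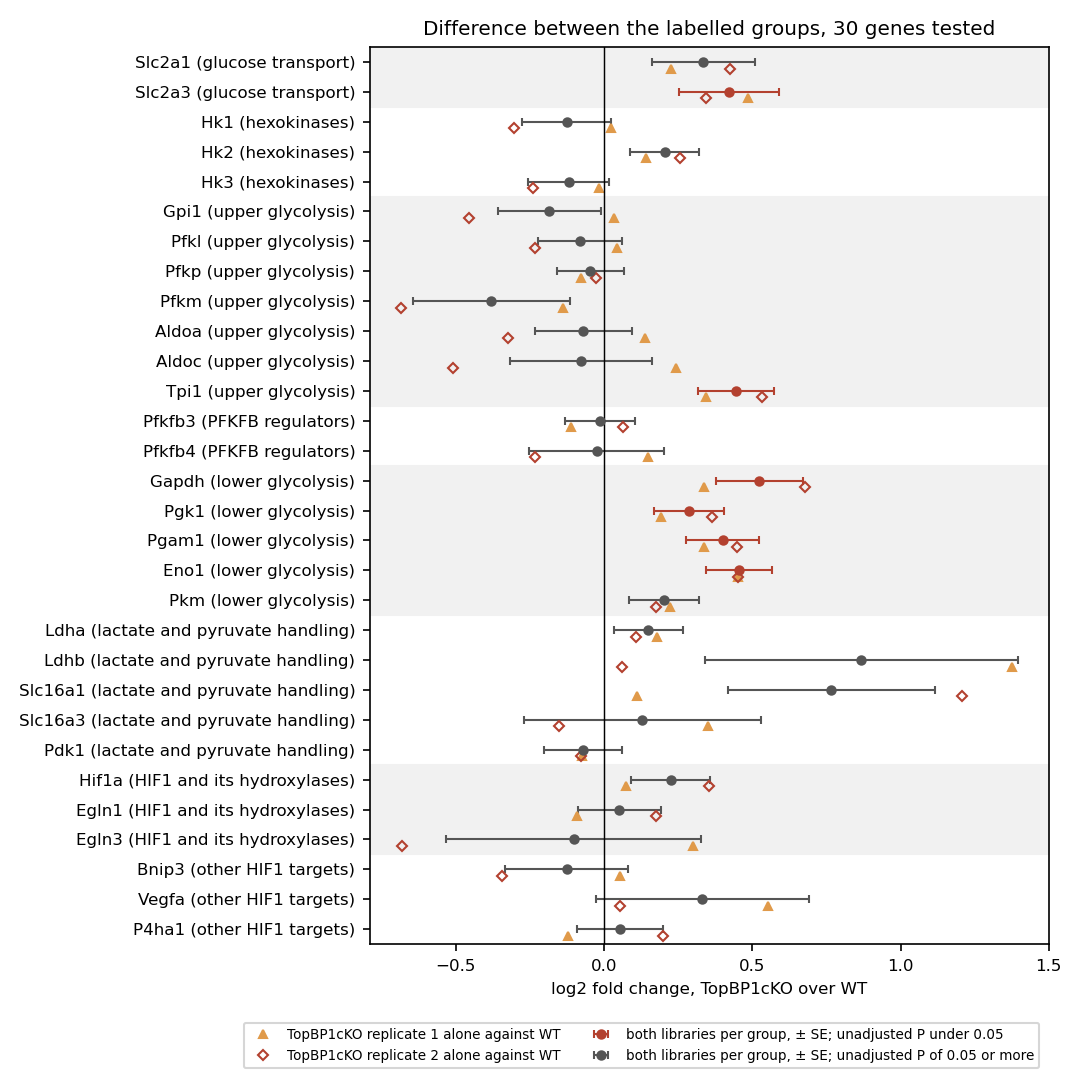
The log2 fold change of TopBP1cKO over WT for the 30 genes tested, with both libraries of each group (circles, bars ± SE) and with each TopBP1cKO library alone against both WT libraries (triangles, replicate 1; open diamonds, replicate 2). The 6 genes in red had an unadjusted P under 0.05, and Gpi1, Aldoa and Aldoc are among the genes for which the triangle and the diamond lie on opposite sides of 0.

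The promoters of the 5 enzymes with higher values are shown first, because these genes act at neighbouring steps and had higher values in the same libraries. Each sequence is the RefSeq window from 250 bases before to 50 bases after a transcription start, so it covers the upstream flank and the start of the first exon, and is given 5′ to 3′ on the gene's own strand in the build GRCm38.p6. Capitals mark ACGTG and GCGTG, the core letters of the hypoxia response element, or their reverse complements, on either strand. Tpi1 lies at chr6:124814109-124814408 on the reverse strand, Gapdh at chr6:125165724-125166023 (reverse), Pgk1 at chrX:106186850-106187149 (forward), Pgam1 at chr19:41911621-41911920 (forward) and Eno1 at chr4:150236458-150236757 (forward).
Tpi1: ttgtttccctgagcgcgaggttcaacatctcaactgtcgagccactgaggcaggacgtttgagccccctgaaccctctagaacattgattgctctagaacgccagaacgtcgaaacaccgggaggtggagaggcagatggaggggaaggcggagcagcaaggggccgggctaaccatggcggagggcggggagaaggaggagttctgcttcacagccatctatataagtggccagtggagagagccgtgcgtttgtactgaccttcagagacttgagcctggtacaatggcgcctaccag
Gapdh: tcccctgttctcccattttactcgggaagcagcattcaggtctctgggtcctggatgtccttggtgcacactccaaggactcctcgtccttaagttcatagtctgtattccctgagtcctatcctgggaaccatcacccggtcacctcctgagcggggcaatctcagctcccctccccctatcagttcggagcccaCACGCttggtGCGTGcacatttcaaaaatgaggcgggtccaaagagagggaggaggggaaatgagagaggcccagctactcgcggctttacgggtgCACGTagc
Pgk1: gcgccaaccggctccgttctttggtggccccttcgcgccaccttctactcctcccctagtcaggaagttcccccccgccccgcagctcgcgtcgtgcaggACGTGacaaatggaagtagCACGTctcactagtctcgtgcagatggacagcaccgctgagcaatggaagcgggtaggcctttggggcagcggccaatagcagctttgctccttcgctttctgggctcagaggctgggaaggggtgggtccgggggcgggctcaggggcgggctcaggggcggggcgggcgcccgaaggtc
Pgam1: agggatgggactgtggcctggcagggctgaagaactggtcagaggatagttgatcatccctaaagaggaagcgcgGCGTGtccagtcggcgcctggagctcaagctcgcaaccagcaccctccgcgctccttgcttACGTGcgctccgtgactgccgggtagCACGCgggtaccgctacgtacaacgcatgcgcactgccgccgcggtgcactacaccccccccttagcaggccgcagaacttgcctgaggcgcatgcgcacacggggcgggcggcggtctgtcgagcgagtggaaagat
Eno1: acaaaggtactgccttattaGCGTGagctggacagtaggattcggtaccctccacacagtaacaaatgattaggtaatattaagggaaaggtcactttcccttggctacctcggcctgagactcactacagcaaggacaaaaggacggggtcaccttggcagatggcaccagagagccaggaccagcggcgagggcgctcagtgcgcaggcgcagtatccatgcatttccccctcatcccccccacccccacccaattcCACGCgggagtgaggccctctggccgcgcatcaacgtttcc

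Among these windows, Gapdh and Pgam1 each held 1 ACGTG and 2 GCGTG, Pgk1 held 2 ACGTG, Eno1 held 2 GCGTG, and Tpi1 held neither. Bnip3, at chr7:138909457-138909756 (reverse), and Pdk1, at chr2:71872974-71873273 (forward), are set beside them as well-known HIF1 targets whose values did not pass an unadjusted P of 0.05.
Bnip3: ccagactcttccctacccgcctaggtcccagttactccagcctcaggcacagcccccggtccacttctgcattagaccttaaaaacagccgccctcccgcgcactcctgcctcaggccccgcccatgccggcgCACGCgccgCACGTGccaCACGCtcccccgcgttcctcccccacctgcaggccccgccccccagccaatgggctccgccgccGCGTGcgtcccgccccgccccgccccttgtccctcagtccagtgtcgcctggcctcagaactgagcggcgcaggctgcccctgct
Pdk1: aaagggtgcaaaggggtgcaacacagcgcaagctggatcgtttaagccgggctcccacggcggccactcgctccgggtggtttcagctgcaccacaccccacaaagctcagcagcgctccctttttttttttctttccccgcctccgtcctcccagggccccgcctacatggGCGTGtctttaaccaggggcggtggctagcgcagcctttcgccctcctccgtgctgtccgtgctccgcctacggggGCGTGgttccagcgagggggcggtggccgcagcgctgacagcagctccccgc

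Bnip3 held 2 ACGTG and 3 GCGTG, of which the 2 ACGTG overlap as 1 CACGTG read on both strands, and Pdk1 held 2 GCGTG. Where a gene had several promoters in the table, the one nearest the start of the GENCODE transcript used for its length was taken. The transcription start of the window lay 244 bases from that GENCODE start in Eno1, 138 in Tpi1 and 52 in Pgam1. In Gapdh, Pgk1, Bnip3 and Pdk1 the distance was 0, so the windows of the 7 genes are not placed alike. Of the 30 genes, 26 (86.7%) held either motif in that window, 20 held ACGTG and 19 held GCGTG, genes with both included. Counting every listed promoter instead, 81.8% of the 44 promoters of these genes held either motif, against 43.8% of all 32851 promoters. ACGTG stood in 56.8% of the 44 against 19.6% of all, and GCGTG in 56.8% against 32.4%. The genes were chosen as glycolytic genes and HIF1 targets, and the background was not matched to them for base content or expression. The shares are therefore a description of the chosen list. A match of 5 letters describes the sequence and is no measure of binding.

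Glucose enters through GLUT1, encoded by Slc2a1, and GLUT3, encoded by Slc2a3, which has the higher affinity. Slc2a3 had 14.9 and 15.3 CPM in WT and 21.3 and 19.2 CPM in TopBP1cKO, a log2 fold change of 0.42 with an SE of 0.168 (FDR = 0.443). Slc2a1 had 14.6 and 15.6 CPM in WT and 17.7 and 20.2 CPM in TopBP1cKO, a log2 fold change of 0.33 with an SE of 0.174 (FDR = 0.545). For both transporters each TopBP1cKO library lay above each WT library, and for neither did the difference pass the FDR threshold.

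Hexokinases trap glucose in the cell as glucose 6-phosphate. Of the 3 isozymes, Hk2, the form that HIF1 and MYC raise, had 111 and 120 CPM in WT and 128 and 138 CPM in TopBP1cKO, a log2 fold change of 0.20 with an SE of 0.117 (FDR = 0.584). Its groups did not overlap. Hk1, the form bound to mitochondria in most tissues, had 60.5 and 64.4 CPM in WT and 63.8 and 50.6 CPM in TopBP1cKO. Hk3, which is abundant in myeloid cells, had 60.6 and 57.8 CPM in WT and 58.8 and 50.1 CPM in TopBP1cKO. In Hk1 and Hk3 the groups overlapped, with TopBP1cKO replicate 2 lowest. Per length, Hk2 made up 38.1% ± 1.20 (SD, n = 2) of the family in WT and 43.7% ± 4.61 (SD, n = 2) in TopBP1cKO, with single libraries from 37.2% to 46.9%. Hk3 held 35.5% and 32.3% and Hk1 26.5% and 24.02% as means of the WT and TopBP1cKO libraries. The mean share of Hk2 differed by 5.62 percentage points, and replicate 1 of TopBP1cKO, at 40.4%, lay 1.51 points above the higher WT library.

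**Figure D3:**
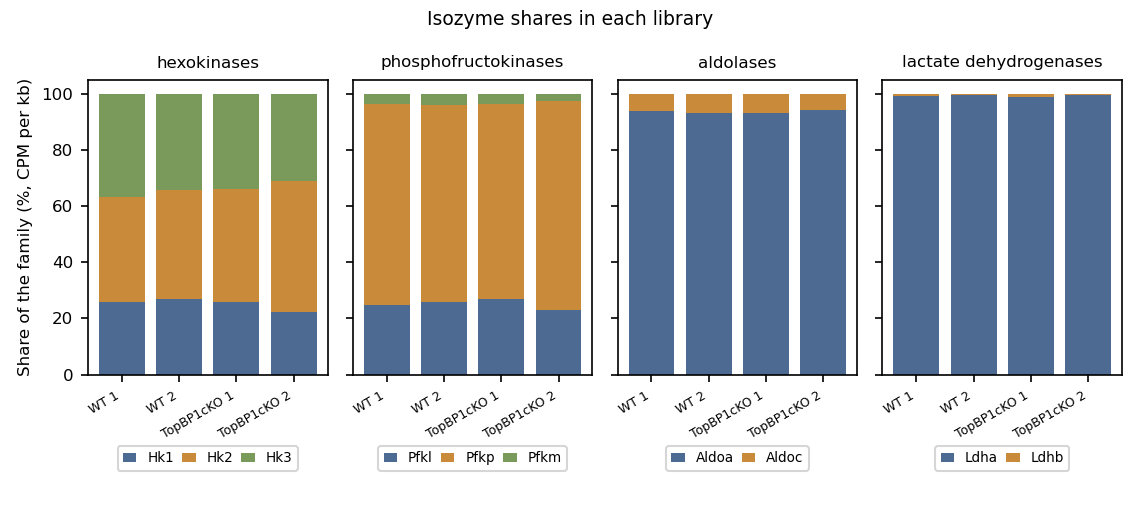
Share of each isozyme in the summed CPM per kilobase of its family, in percent, as stacked bars for the 4 libraries (numbers on the axis are replicates). Pfkp, with its rows of predicted non-coding transcripts included, held 69.6% to 74.5% of the phosphofructokinases. Aldoa held 93.2% to 94.4% of the aldolases and Ldha 98.9% to 99.6% of the lactate dehydrogenases, while the hexokinases were divided among all 3 isozymes.

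The upper steps that follow gave a different picture. Gpi1, which converts glucose 6-phosphate to fructose 6-phosphate, had 551 and 558 CPM in WT, 570 CPM in TopBP1cKO replicate 1 and 405 CPM in replicate 2, for a log2 fold change of −0.18 with an SE of 0.174 (FDR = 0.741). Aldoa, the main aldolase, which cleaves fructose 1,6-bisphosphate, behaved alike, with 266 and 270 CPM in WT, 297 CPM in replicate 1 and 214 CPM in replicate 2. Aldoc, a minor aldolase here, had 31.2 and 35.5 CPM in WT, 39.7 CPM in replicate 1 and 23.5 CPM in replicate 2. In each of these 3 genes, TopBP1cKO replicate 1 was the highest of the 4 libraries and replicate 2 the lowest, so that the labelled groups overlapped. Pfkm, a minor phosphofructokinase, was 1 of the 2 genes with both TopBP1cKO libraries below WT. It had 8.27 and 9.39 CPM in WT and 8.07 and 5.50 CPM in TopBP1cKO, a log2 fold change of −0.38 with an SE of 0.264 (FDR = 0.650). Pfkp, the most counted phosphofructokinase gene, stood at 233 and 244 CPM in WT and at 227 and 235 CPM in TopBP1cKO. Pfkl, the liver-type form, had 72.2 and 80.3 CPM in WT and 79.1 and 65.1 CPM in TopBP1cKO. Both overlapped between the labelled groups. Most counts of Pfkp lay on rows with the prefix XR, which RefSeq gives to predicted non-coding transcripts. The largest, XR_001780792.2, held 60.8% to 70.7% of the gene's counts, and the coding row NM_019703.4 held 6.1% to 10.2%. The predicted coding row XM_006516487.5 held 8.65% and 16.4% in WT, 14.8% in TopBP1cKO replicate 1 and 0% in replicate 2. The rank of Pfkp above Pfkl rests on the XR rows. The bifunctional regulators that set fructose 2,6-bisphosphate, the activator of phosphofructokinase, also overlapped. Pfkfb3 ran from 155 to 174 CPM over the 4 libraries (log2 fold change −0.01, SE 0.118, FDR = 0.976), and Pfkfb4 from 12.1 to 16.3 CPM.

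From triose phosphate isomerase onwards the values were higher in the libraries labelled TopBP1cKO. Tpi1, which interconverts the triose phosphates, had 74.1 and 68.4 CPM in WT and 91.0 and 103 CPM in TopBP1cKO, a log2 fold change of 0.45 with an SE of 0.127 (FDR = 0.337). Gapdh, the step that makes NADH, had 381 and 362 CPM in WT and 472 and 595 CPM in TopBP1cKO, a log2 fold change of 0.52 with an SE of 0.147 (FDR = 0.336). Replicate 2 was the higher of the TopBP1cKO libraries in both genes, and replicate 1 was still above both WT libraries. Pgk1, the first ATP-making enzyme of the chain, had 139 and 134 CPM in WT and 157 and 176 CPM in TopBP1cKO, a log2 fold change of 0.29 with an SE of 0.119 (FDR = 0.456). Pgam1, which moves the phosphate of phosphoglycerate, had 138 and 119 CPM in WT and 163 and 176 CPM in TopBP1cKO, a log2 fold change of 0.40 with an SE of 0.125 (FDR = 0.347). The nearest libraries of the 2 labelled groups were 18.1 CPM apart in Pgk1 and 25.9 CPM apart in Pgam1, where the WT libraries were 4.80 and 18.0 CPM apart. Eno1, the enolase that makes phosphoenolpyruvate, had the smallest P value of the 30 genes, with 132 and 138 CPM in WT and 186 and 186 CPM in TopBP1cKO, a log2 fold change of 0.46 with an SE of 0.111 (FDR = 0.307).

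Summed over Tpi1, Gapdh, Pgk1, Pgam1 and Eno1, a group put together after their values were seen, the level was 864 and 822 CPM in WT and 1069 and 1235 CPM in TopBP1cKO. The 6 genes of the steps before them, Gpi1, the phosphofructokinases and the aldolases, summed to 1162 and 1197 CPM in WT, 1221 CPM in TopBP1cKO replicate 1 and 948 CPM in replicate 2. The first sum was higher in both TopBP1cKO libraries, and the second was lower in replicate 2 alone. Over all 15 enzymes from hexokinase to pyruvate kinase the sums lay closer, at 2559 and 2586 CPM in WT and 2908 and 2775 CPM in TopBP1cKO.

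**Figure D4:**
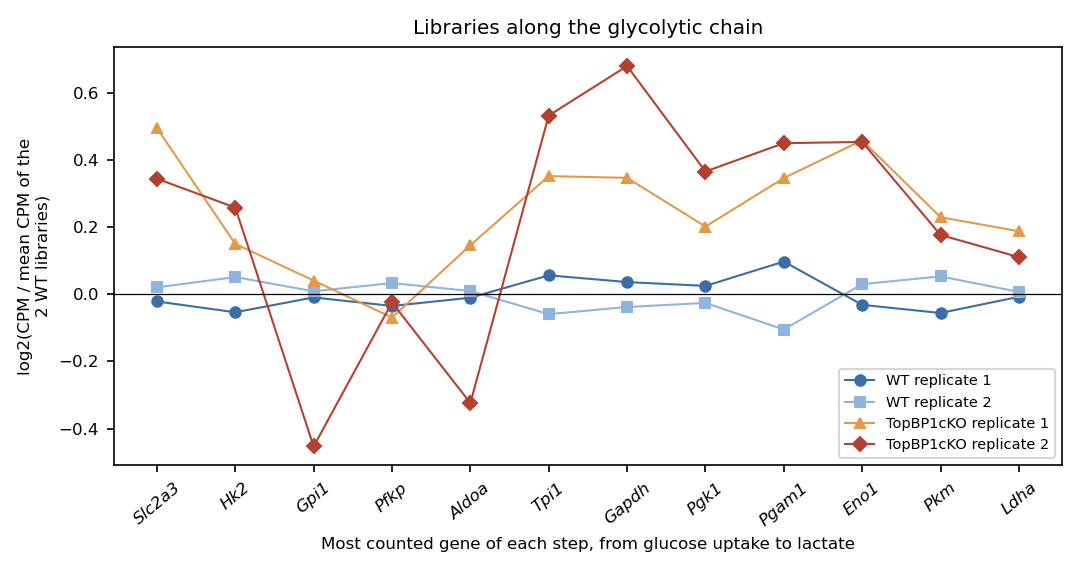
Each library's level relative to the mean of the WT libraries, as a log2 ratio of CPM, for the most counted gene of each step from glucose uptake to lactate (lines join the steps of 1 library). From Tpi1 to Ldha both TopBP1cKO libraries lie above both WT libraries, while at Gpi1 and Aldoa TopBP1cKO replicate 2 lies lowest and replicate 1 highest.

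Pkm, whose M2 splice form is typical of proliferating and immune cells, had 301 and 324 CPM in WT and 367 and 353 CPM in TopBP1cKO, a log2 fold change of 0.20 with an SE of 0.118 (FDR = 0.589). The groups did not overlap. The transcript row of the M2 form (NM_011099.4) carried 95.2% and 96.5% of the gene's counts in WT and 93.5% and 93.6% in TopBP1cKO. The M1 row (NM_001253883.2) held 63 and 98 counts in WT and 141 and 69 counts in TopBP1cKO, so that the 2 labelled groups overlapped.

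Lactate dehydrogenase A, which makes lactate, was the main form, and Ldha had 343 and 346 CPM in WT and 392 and 372 CPM in TopBP1cKO, a log2 fold change of 0.15 with an SE of 0.117 (FDR = 0.687). The groups did not overlap, but the difference did not pass the test. Ldhb, the form that favours pyruvate, had 21 and 17 counts in WT and 52 and 21 counts in TopBP1cKO, too few to place it. Slc16a1, which encodes the lactate and pyruvate transporter MCT1, had 6.99 and 7.74 CPM in WT, 8.01 CPM in TopBP1cKO replicate 1 and 17.1 CPM in replicate 2, a log2 fold change of 0.77 with an SE of 0.348 (FDR = 0.492). The excess of Slc16a1 sat in 1 library, and without it the log2 fold change was 0.11. Slc16a3, which encodes the exporter MCT4 and is a HIF1 target, had 35 and 75 counts in WT and 73 and 52 counts in TopBP1cKO. Pdk1, the kinase that shuts pyruvate dehydrogenase off when HIF1 is active, was the other gene with both TopBP1cKO libraries below WT, at 37.3 and 36.1 CPM in WT and 35.0 and 34.8 CPM in TopBP1cKO. Its log2 fold change was −0.07 (SE 0.131, FDR = 0.884).

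Hif1a, the oxygen-regulated subunit of HIF1, had 110 and 104 CPM in WT and 113 and 137 CPM in TopBP1cKO, a log2 fold change of 0.23 with an SE of 0.133 (FDR = 0.594). The groups did not overlap, but TopBP1cKO replicate 1 lay only 2.87 CPM above the higher WT library. Egln1, which encodes the main prolyl hydroxylase PHD2, ran from 43.9 to 52.6 CPM and overlapped between the labelled groups. Egln3, which encodes PHD3 and is itself a HIF1 target, had 32 and 41 counts in WT and 47 and 24 counts in TopBP1cKO. RNA levels do not report the stability of the HIF1 alpha protein, which was not measured in these libraries.

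The other HIF1 targets gave no common direction. P4ha1, a collagen prolyl hydroxylase subunit, had 59.5 and 57.2 CPM in WT and 54.0 and 67.1 CPM in TopBP1cKO, a log2 fold change of 0.05 with an SE of 0.145 (FDR = 0.933). Bnip3, a mitophagy receptor, had 13.9 and 13.6 CPM in WT and 14.4 and 10.9 CPM in TopBP1cKO, and Vegfa, the angiogenic growth factor, had 31 and 42 counts in WT and 56 and 40 counts in TopBP1cKO. In all 3 genes the labelled groups overlapped. Ankrd37, a small ankyrin-repeat gene induced by HIF1, had 0 and 3 counts in WT and 10 and 7 counts in TopBP1cKO. The ratio was 5.40 with an exact 95% binomial interval of 1.56 to 28.8 that covers counting error at most. The quasi-likelihood fit without a filter on low counts included all 31 genes. Ankrd37 was not among the 6 that had an unadjusted P under 0.05 in that fit. Without WT replicate 1, the library at 0, the ratio was 2.79 with an interval of 0.807 to 14.9, an alternative chosen after seeing the data. Set by role, the 6 genes with an unadjusted P under 0.05 were 4 of the 5 of lower glycolysis, 1 of the 2 glucose transporters and 1 of the 7 of upper glycolysis, and the other roles, with 2 to 5 genes tested each, held none, where 10.7% of all genes passed. The difference between roles was not tested.

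Taken alone against both WT libraries, the TopBP1cKO libraries differed. In these fits of 3 libraries the lone library is assumed to vary as the WT libraries do. TopBP1cKO replicate 2 had 10 of the 30 genes at an FDR under 0.05, against 20.5% of all genes tested in that fit. Of these, Tpi1, Gapdh, Pgk1, Pgam1, Eno1, Slc16a1 and Hif1a were higher, and Gpi1, Aldoa and Aldoc were lower. Replicate 1 had 1, Eno1, against 1.74% of all genes. The log2 fold change of Eno1 was 0.45 with replicate 1 alone (FDR = 0.0410) and 0.45 with replicate 2 alone (FDR = 0.00679). That of Gapdh was 0.34 and 0.68, and that of Gpi1 0.03 and −0.45, with replicate 1 and replicate 2 in that order. The WT libraries were closer to each other than the TopBP1cKO libraries were. Over the 30 genes, the median absolute log2 ratio between replicates was 0.09 in WT and 0.28 in TopBP1cKO, against 0.14 and 0.24 over all genes tested. The count at an unadjusted P under 0.05 was 2 without WT replicate 1, where 5.15% of all genes passed, and 0 without WT replicate 2, where 4.53% did, fits in which the spread comes from the TopBP1cKO libraries alone.

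**Figure D5:**
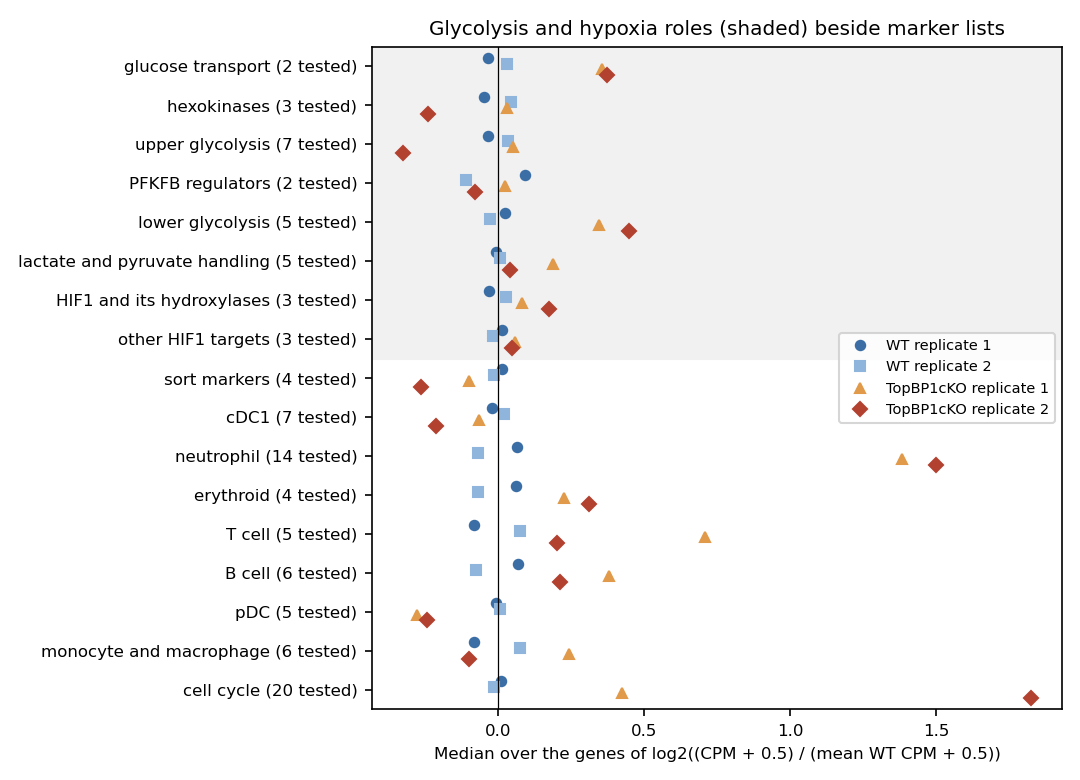
Median over the genes of each list of the log2 ratio of a library to the mean of the WT libraries (0.5 CPM added to both), for the 8 roles of the glycolysis and hypoxia genes (shaded) and for the lists of marker genes (number of genes tested in brackets). The lower glycolysis genes lie at 0.35 and 0.45 in TopBP1cKO replicate 1 and replicate 2, the cell cycle list at 0.42 and 1.82, and the neutrophil list at 1.38 and 1.5.

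The markers of other cells were measured beside these genes. Neutrophil genes moved in both TopBP1cKO libraries: Ngp had 251 and 249 CPM in WT and 706 and 690 CPM in TopBP1cKO, whereas Mpo, a gene of early granulocytes, had 598 and 423 CPM in WT, 874 CPM in replicate 1 and 195 CPM in replicate 2. The cell cycle genes moved mostly in replicate 2: Mki67 had 216 and 202 CPM in WT, 253 CPM in replicate 1 and 785 CPM in replicate 2. The median log2 fold change of the cell cycle list was 0.43 without TopBP1cKO replicate 2 and 1.85 without replicate 1. Only 4 of 8 erythroid and 5 of 7 T cell markers had enough counts to be tested. Of 7 B cell markers 6 were tested, and the other, Ighm, was not among the symbols of the count tables. The sums of the erythroid, T cell and B cell markers were low in every library, at 13.4 to 18.6, 16.9 to 28.9 and 28.2 to 38.8 CPM. The B cell sum leaves Ighm out. The cDC1 markers summed to 5161 and 5325 CPM in WT and 4932 and 4523 CPM in TopBP1cKO. Those of plasmacytoid dendritic cells summed to 201 and 206 CPM in WT and 169 and 164 CPM in TopBP1cKO. Those of monocytes and macrophages summed to 596 and 572 CPM in WT and 684 and 522 CPM in TopBP1cKO. Most of the plasmacytoid sum came from Tcf4 and Bst2, and most of the monocyte and macrophage sum from Ccr2. Neither of these lists moved in a single direction. In 2 of the 5 plasmacytoid genes tested both TopBP1cKO libraries lay below both WT libraries, in 1 both lay above, and 2 overlapped. Of the 6 monocyte and macrophage genes tested, 2 lay above, 2 below and 2 overlapped. The part of the marker lists in the glycolytic differences was not tested.

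Genes around the pathway were examined beside it. Of 76 further genes of glucose handling, the pyruvate dehydrogenase complex, the pentose phosphate pathway, the HIF machinery and the hypoxia response, 60 were tested. At an FDR under 0.05 edgeR's quasi-likelihood test and limma-voom called 0, and DESeq2 and the edgeR likelihood ratio test each called 1, Tfrc. At an unadjusted P under 0.05, 2 were higher and 2 were lower, which is 6.67% of the 60 against 10.7% of all genes, and the median log2 fold change of the 60 was 0.02. With TopBP1cKO replicate 2 alone against WT, 14 of 61 (23.0%) passed an FDR of 0.05, against 20.5% of all genes, and with replicate 1 alone 2 of 60 (3.33%), against 1.74%. All 4 stood among the 16 further hypoxia targets tested. Tfrc, the transferrin receptor, had 24.9 and 25.8 CPM in WT and 38.6 and 58.3 CPM in TopBP1cKO, a log2 fold change of 0.93 with an SE of 0.204 (FDR = 0.307). Bhlhe40, a transcription repressor, had 8.76 and 11.4 CPM in WT and 15.4 and 16.9 CPM in TopBP1cKO, a log2 fold change of 0.68 with an SE of 0.208 (FDR = 0.347). The 2 with lower values were Hmox1, the haem-degrading enzyme, at a log2 fold change of −0.64 with an SE of 0.228 (FDR = 0.384), and Cited2, a HIF1 antagonist, at −0.37 (SE 0.125, FDR = 0.365). Hmox1 had 12.2 and 14.7 CPM in WT and 7.48 and 9.83 CPM in TopBP1cKO, and Cited2 105 and 121 CPM in WT and 85.8 and 89.1 CPM. The 12 genes tested of the pyruvate dehydrogenase complex, the 8 of the pentose phosphate pathway, the 10 of the HIF machinery and the 14 other isozymes and glucose-handling genes held none at an unadjusted P under 0.05, with medians of 0.02, 0.02, −0.07 and 0.13. Epas1, which encodes HIF2 alpha, had 4 and 3 counts in WT and 9 and 11 counts in TopBP1cKO.

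Several of these genes have near-identical copies, so their counts depend on how reads that fit more than 1 gene were assigned. Of the stretches of 31 bases in a representative transcript of each gene, 84.1% recurred in other annotated genes for Gapdh, 77.2% for Eno1, 68.3% for Pgk1, 42.1% for Pgam1 and 18.2% for Tpi1, against 0% for Slc2a1 and Slc2a3. The share was 50.9% for Pkm, 41.4% for Ldhb, 39.2% for Ldha, 35.0% for Aldoa, 32.1% for Gpi1 and 26.5% for Bnip3. For all of these genes with a share above 0% except Gpi1, most or all of the other genes are not among the symbols of the count tables. The tables hold 11 of 324 for Gapdh, 1 of 13 for Eno1, 1 of 8 for Tpi1 and 1 of 16 for Pkm. They hold 2 of 27 for Ldha, 2 of 10 for Aldoa and none for Pgk1, Pgam1, Ldhb and Bnip3. Reads shared with the rest were therefore not measured. For Gpi1 they hold 283 of 364, of which Atp11a shared most, at 1.16% of the stretches. The 11 listed for Gapdh had 168 and 158 counts in WT and 199 and 203 counts in TopBP1cKO, where Gapdh had 5388 and 5465 and 7192 and 9197. Eno1b, the copy of Eno1, had 39 and 52 counts in WT and 56 and 63 counts in TopBP1cKO, where Eno1 had 1875 and 2091 and 2835 and 2869. Single transcript rows were less steady than their sums. The counts of Pfkfb3 moved between the rows NM_133232.3 (0 and 330 counts in WT, 0 and 152 in TopBP1cKO) and XM_030247921.2 (332 and 0, 141 and 0), from library to library within each labelled group. At the threshold of 20 counts, 5 rows of the 31 genes were present in 1 WT and 1 TopBP1cKO library and at 0 in the others, 3 of them in libraries of the same replicate number and 2, of Hk1 and Hk2, in WT replicate 2 and TopBP1cKO replicate 1, and 3 rows were present in both TopBP1cKO libraries and at 0 in both WT libraries. These 3 belonged to Slc2a3 (NM_001410375.1, 32 and 50 counts in TopBP1cKO), Slc16a3 (NM_001038653.1, 22 and 24) and Vegfa (NM_009505.4, 51 and 32).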

How the data were processed

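RNA of sorted CD24+ splenic EPs was made into CORALL RNA-seq V2 libraries, 2 WT and 2 labelled TopBP1cKO. The labels name RNAiso Plus for the extraction and the methods an RNeasy kit. The authors deposited whole-number read counts per RefSeq transcript, without normalization. The submitters' processing notes name GATK, fastp, STAR, Salmon and the build GRCm39; the strand setting and how a read shared by transcripts was assigned are not given in the sources used here.

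Counts were summed per gene symbol. Of 19815 symbols with a count, 12393 passed edgeR's filterByExpr (version 4.0.16, minimum count 10). They were scaled by TMM and compared by its two-sided quasi-likelihood test (glmQLFit and glmQLFTest). The FDR is the Benjamini-Hochberg adjusted P over these genes. The fit was tested on simulated data. R 4.3.3, limma 3.58.1, DESeq2 1.42.0 and Python 3.11.15 were used. The common dispersion was 0.0230, a coefficient of variation of 15.2%. CPM used TMM effective library sizes. Lengths came from GENCODE M21 transcripts matched to the most counted RefSeq row that had a match. That row held 7.59% of the counts of Pfkp, 29.5% of Pfkfb3 and 19.6% of Slc16a3, so their levels per length are less certain. Promoters came from RefSeq on GRCm38.p6, and 30 of 31 genes matched (Slc2a3 did not).

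The genes and lists were chosen with earlier results of these data known. All 31 could be named, with fold change, SE and FDR where the unadjusted P was under 0.05, where the groups did not overlap, or for the most abundant gene of a role. Of the related genes, those with an unadjusted P under 0.05 and Eno1b were named, and up to 3 per marker list by level. Epas1 and Kit fall outside these limits and were added after their values were seen. Other normalizations, filters, tests, single transcripts, the replicate number as a block and each library left out were tried. Nothing says that the libraries are separate animals, so P values measure the spread between these libraries, which may be technical. Any use of molecular identifiers in the counting is not given in the sources used here. The binomial intervals for Ankrd37 cover counting error only if each read was an independent count, and they leave out the spread between libraries.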

Additional observations from a re-analysis of the deposited data

How the results depend on the processing

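With 2 libraries per group, only differences well above the replicate spread could pass. Without 1 library the lone one is assumed to vary like the other group. Over all genes, the count at an FDR under 0.05 was 13, and it was 137 by DESeq2, 234 by the edgeR likelihood ratio test, 0 with each transcript as its own feature, and 1 to 2625 with 1 library left out. For the glycolysis and hypoxia genes it was 0 under every setting with all 4 libraries and 0 to 10 with 1 left out. At an unadjusted P under 0.05 their count was 5 or 6 with all 4 libraries, except 10 with each transcript as its own feature, and 0 to 15 with 1 left out. Their median log2 fold change was 0.21 by transcript and 0.0623 to 0.145 with 1 library left out. For the related genes the count at an FDR under 0.05 was 1 by DESeq2 and by the likelihood ratio test, and 0 to 14 with 1 left out.

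The labels do not say whether same-numbered libraries were handled together. The correlation of the deviations of the 2 libraries numbered 1 from their group means was −0.0147, which does not decide it. With the replicate number as a block, 504 genes, 1 related gene (Tfrc) and 0 of the glycolysis and hypoxia genes passed an FDR of 0.05, and 5 of the latter an unadjusted P of 0.05.

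Per gene, 249 fold changes under the other settings held 0 reversals and 0 crossings of the FDR threshold. With Eno1 and Eno1b counted as 1 gene, an alternative chosen after seeing the data, the log2 fold change was 0.45 (FDR = 0.307). Of 124 with 1 library left out, 17 changed sign, and the cause was not tested. The log2 fold change then ran from −0.30 to 0.0221 for Hk1, −0.45 to 0.0325 for Gpi1, −0.23 to 0.044 for Pfkl, −0.33 to 0.14 for Aldoa, −0.51 to 0.24 for Aldoc, −0.11 to 0.0655 for Pfkfb3, −0.23 to 0.20 for Pfkfb4, −0.28 to 0.71 for Slc16a3, −0.0923 to 0.17 for Egln1, −0.68 to 0.30 for Egln3, −0.34 to 0.0533 for Bnip3, −0.12 to 0.20 for P4ha1 and −0.61 to 0.11 for Topbp1.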
